A study of Coturnix japonica with 24 samples.

Results

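Of 7 listed genes of glycolysis and glycogen breakdown, GPI, TPI1, ENO1, PGK1, LDHA, LDHB and PHKA1, 6 had a probe set that the array's annotation assigned to that symbol alone, and all 6 could be tested. They are 6 of 11830 genes tested on the array. PGK1 (phosphoglycerate kinase) had no such probe set and was not analysed here. The rule itself uses names and no measured value, but the genes were picked with earlier results of these data known.

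The samples were mediobasal hypothalamus (MBH) of male Japanese quail. All birds had been kept in short days of 6 h light and 18 h dark for 4 weeks and were 8 weeks old when the experiment began. The long-day birds were then moved to 20 h light and 4 h dark for 2 weeks, and the short-day birds stayed in short days for the same 2 weeks. Tissue was taken every 4 h at 6 zeitgeber times (ZT2, ZT6, ZT10, ZT14, ZT18 and ZT22, read here as hours after lights on), and each array received RNA pooled from 3 birds, with 2 arrays numbered 1 and 2 for each of the 12 groups. The array carried chicken probes, so a level depends on how well quail RNA matches them, and levels were compared between conditions and never between genes.

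Glycolysis splits glucose into pyruvate, yielding ATP and NADH in the cytosol, and lactate dehydrogenase then turns pyruvate and NADH into lactate and NAD+ or runs the other way. Glycogen is the glucose store of the brain and lies mostly in glial cells. Its breakdown is switched on by phosphorylase kinase, an enzyme of alpha, beta, gamma and calmodulin subunits that phosphorylates glycogen phosphorylase. The MBH holds the neurons, tanycytes and neighbouring pars tuberalis through which day length controls reproduction in birds.

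The arrays differed in overall brightness by a factor of 1.93 before centring, and the array numbered 1 was the brighter in 12 of 12 groups. Intensities given here were centred by array medians. The share of probe sets above background ranged from 38.1% to 49.6%. The MBH transcript POMC averaged 135 ± 32.4 in long days and 277 ± 64.3 in short days (SD, n = 12 each), a log2 difference of -1.04 ± 0.14 (SE, adjusted p = 0.000265 by limma), and was above background on all arrays. The number of arrays limits the precision, and the spread that every p-value rests on is that of pools, not of single birds.

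PHKA1, the muscle-type alpha subunit of phosphorylase kinase through which the enzyme is regulated by phosphorylation, was higher in long days. It was read on 1 probe set, of a kind that can match several transcripts, with no other to compare. Its intensity was 118 at the lowest, 157 at the median and 209 at the highest over the 12 long-day arrays, and 53.4, 88.5 and 108 over the 12 short-day arrays. The groups did not overlap: all 12 long-day arrays lay above all 12 short-day arrays, a separation in this direction that 0.0382% of tested probe sets showed. The mean was 158 ± 31.3 in long days, against 86.1 ± 13.1 in short days (SD, n = 12 each). The difference was 0.85 ± 0.14 on the log2 scale (SE, 95% interval 0.56 to 1.14), a 1.81-fold higher level, with an adjusted p of 0.0041 by limma.

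PHKA1 was the single member that passed the test of photoperiod. This was 1 of 6 members, where 38 of 28829 probe sets, or 0.132%, passed in either direction and 0.0763% passed as higher. No member passed as lower, where 0.0555% of probe sets did, and no member had all long-day arrays below all short-day arrays, where 0.0243% did. The median difference of the 6 members was 0.08 on the log2 scale, with 3 of the 6 above 0, and the median over all tested probe sets was -0.01, with 48.9% above 0.

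The PHKA1 difference was present at each of the 6 times. At ZT2 the long-day arrays read 120 and 157 and the short-day arrays 78.0 and 108. At ZT6 they read 148 and 131 in long days and 85.3 and 84.6 in short days, and at ZT10 118 and 181 in long days and 97.1 and 88.9 in short days. In each of these pairs, taken during the light of the long day, both long-day arrays lay above both short-day arrays.

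The gap was widest at ZT14, where PHKA1 read 199 and 209 in long days and 53.4 and 88.5 in short days. At ZT18 it read 156 and 187 in long days and 90.5 and 88.4 in short days. At ZT22 it read 123 and 162 in long days and 78.6 and 91.8 in short days. Both long-day arrays thus lay above both short-day arrays at 6 of 6 times. This follows from the full separation of the arrays given above and is no further support. The looser condition of 5 or more times was met by 0.257% of tested probe sets. The long-day mean was the higher at all 6 times in 2.07% of probe sets, and among the members in PHKA1 alone, where it follows likewise.

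Taken one time at a time, the log2 difference of PHKA1 was 0.57 (ZT2), 0.70 (ZT6), 0.65 (ZT10), 1.55 (ZT14), 0.92 (ZT18) and 0.72 (ZT22), each with an SE of 0.34 from 2 arrays against 2. None passed the test at its own time in limma, nor did any other member, where the share of probe sets called was 0.00694% (ZT2), 0.0139% (both ZT6 and ZT10), 0.0277% (ZT14), 0.0173% (ZT18) and 0.0104% (ZT22). The adjusted p of PHKA1 at ZT14 was 0.301 by limma. The size of its difference was not shown to depend on the time of day, with an unadjusted p of 0.388 and an adjusted p of 1 for the interaction in limma.

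In long days the group means of PHKA1 ran from 204 at ZT14 through 172 at ZT18, 150 at ZT10, 142 at ZT22 and 139 at both ZT6 and ZT2. In short days they ran from 93.1 at ZT2 and 93.0 at ZT10 through 89.5 at ZT18, 85.2 at ZT22 and 85.0 at ZT6 to 71.0 at ZT14. No neighbours in either order were shown to differ, since the test of time within a photoperiod gave an unadjusted p of 0.525 in long days and 0.832 in short days (adjusted p = 1 in both by limma). A fitted 24 h cosine had an amplitude of 0.26 ± 0.13 with its peak at 15.1 h in long days and 0.10 ± 0.13 with its peak at 2.58 h in short days (log2, SE), and neither passed (unadjusted p = 0.154 and 0.72, limma).

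**Figure D1:**
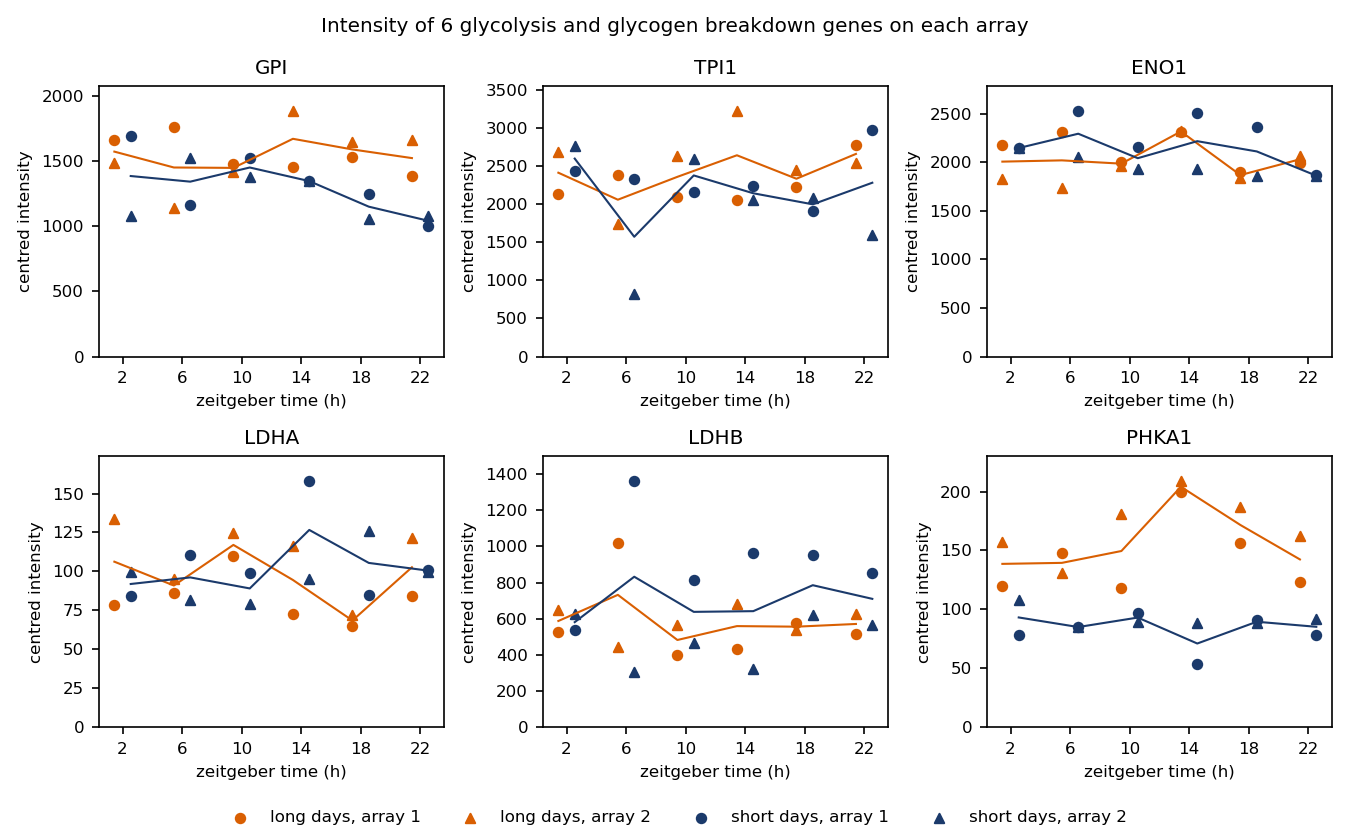
Centred intensity (vertical axes, from 0) of the 6 genes against zeitgeber time in hours, with long days in orange drawn left of short days in blue, circles for arrays numbered 1, triangles for arrays numbered 2, and lines through the means of 2 arrays. PHKA1 lies between 118 and 209 in long days and between 53.4 and 108 in short days with no overlap, while the groups overlap for the other 5 genes.

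The call for PHKA1 held with each of the 24 arrays left out in turn, with differences of 0.79 to 0.91. It was lost without centring of the arrays (0.82, adjusted p = 1) and with 12 arrays in place of 24, where the difference was 0.83 with adjusted p = 0.152 on those numbered 1 and 0.88 with adjusted p = 0.205 on those numbered 2 (limma).

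An RNA measure differed between photoperiods before adjustment but not after it, and it correlated with PHKA1 over all 24 arrays. The ACTB control's 3′ over 5′ ratio, which is higher where RNA is degraded or copied incompletely, was 1.84 ± 0.15 in long days, against 1.68 ± 0.17 in short days (log2, SD, n = 12 each; two-sided permutation p = 0.0241, adjusted p = 0.0964 over 4 array measures). Over all 24 arrays PHKA1 correlated with it at Pearson's r = 0.53 (permutation p = 0.00696, adjusted p = 0.0418 over 6 genes) and Spearman's rho = 0.54 (p = 0.00658, adjusted p = 0.0395), and at r = 0.43 without the 2 arrays farthest from the median ratio.

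Within the 12 long-day arrays the correlation of PHKA1 with the ratio was r = 0.65 (permutation p = 0.0151, adjusted p = 0.181 over 12 relations) and rho = 0.49 (p = 0.111, adjusted p = 0.666), and it was r = 0.34 without the 2 farthest arrays. Within the 12 short-day arrays it was r = -0.05 (p = 0.854, adjusted p = 0.854) and rho = -0.03 (p = 0.921, adjusted p = 1), and r = -0.02 without the 2 farthest. The ACTB ratio was the higher on arrays numbered 2 in 9 of 12 groups (1.82 against 1.71 on average, log2). PHKA1 also averaged higher on arrays numbered 2, at 171 against 144 in long days and 91.7 against 80.5 in short days. The correlations took no account of the array number, so the 2 cannot be told apart in them. With the ratio as a covariate, chosen after the data were seen, the photoperiod difference of PHKA1 was 0.83 ± 0.17 with an adjusted p of 0.0591 by limma, so its size hardly moved and the call was lost. The GAPDH control gave a 3′ over 5′ ratio of 0.22 ± 0.10 in long days against 0.21 ± 0.11 in short days (log2, SD, n = 12 each).

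**Figure D2:**
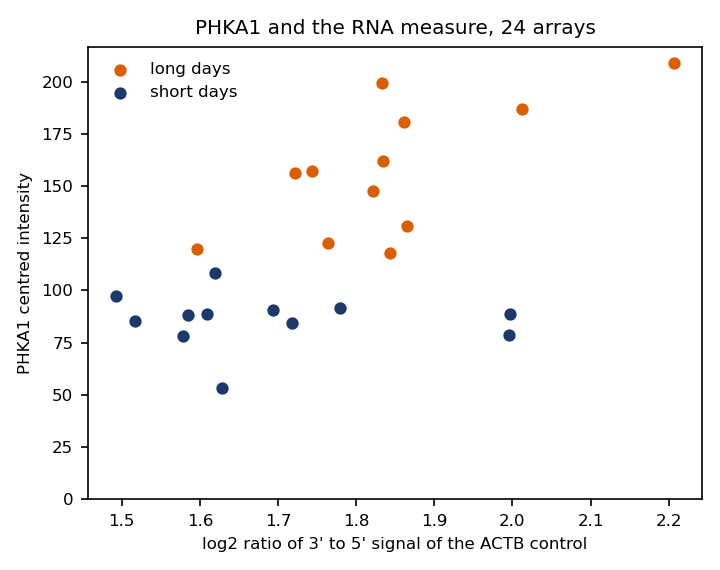
PHKA1 centred intensity (vertical axis, from 0) against the ACTB control's 3′ over 5′ ratio (horizontal axis, log2), 1 point for each of 24 arrays, long days in orange and short days in blue. Long-day points lie higher and, on average, further right; the lowest long-day point is at 118 and the highest short-day one at 108.

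PHKA1 protein is best known from skeletal muscle, so muscle markers were read beside it. Of 7 listed, 3 could be tested and none passed for photoperiod. Their summed intensity was 40.4 to 99.7 over the long-day arrays and 67.0 to 99.0 over the short-day arrays. ACTA1, skeletal muscle actin, was above background on 12 of 12 arrays in each photoperiod, and TNNT3, a troponin of fast muscle, on 10 long-day and 12 short-day arrays. MYL1, a myosin light chain of fast muscle, was above background on 0 of the 24 arrays. The part of muscle tissue in the PHKA1 difference was not tested.

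The pars tuberalis markers TSHB and CGA, the subunits of thyrotropin, both rose in long days together with PHKA1, and their sum was 983 to 2924 in long days and 152 to 1365 in short days. Of 8762 genes TSHB had the 12 group means most like those of PHKA1 (r = 0.92), and a high r follows from picking the highest. Within photoperiods that likeness was 0.60 over the 6 long-day means and 0.03 over the 6 short-day means. The next were KLF9, a zinc finger transcription factor (0.92 over 12 means, 0.08 in long days and 0.35 in short days), and SLCO1A2, an organic anion transporter (0.91 over 12 means, 0.86 in long days and 0.82 in short days). Among the tanycyte markers, DIO2, which activates thyroid hormone, averaged 242 ± 37.1 in long days and 63.5 ± 21.3 in short days (SD, n = 12 each), while FABP7, a lipid carrier of radial glia, averaged 222 ± 63.5 in long days and 420 ± 71.0 in short days (SD, n = 12 each). Of the 5 tanycyte and radial glia markers tested 2 lay above 0, with a median of -0.22 (log2). VIM gave -0.22 ± 0.09, NES -0.30 ± 0.22 and SOX2 0.32 ± 0.43 (log2, SE), and none of these passed. SOX2 was above background on 8 long-day and 5 short-day arrays. Among the MBH markers POMC fell, as given above, and NPY, a neuropeptide of feeding neurons, gave -0.29 ± 0.09 (log2, SE, unadjusted p = 0.00495, adjusted p = 0.555 by limma). Of the 7 MBH markers tested 2 lay above 0, AGRP (0.12 ± 0.24) and TAC1 (0.13 ± 0.17, log2, SE). The median of the 7 was -0.04, and TRH was above background on only 3 arrays in each photoperiod. No listed marker of neurons in general, astrocytes, oligodendrocytes, microglia, endothelium, red blood cells, anterior pituitary or choroid plexus passed for photoperiod. The part of pars tuberalis tissue, tanycytes or POMC neurons in the PHKA1 difference was not tested, and more cells of a type cannot be told apart from more RNA per cell in dissected tissue.

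GPI, glucose-6-phosphate isomerase, which makes fructose 6-phosphate in the second step of glycolysis, had the next largest difference of the members and did not pass. Its intensity was 1137 at the lowest, 1508 at the median and 1885 at the highest in long days, and 1004, 1293 and 1688 in short days. The groups overlapped: 2 long-day arrays lay above the highest short-day array and 4 short-day arrays below the lowest long-day array. The mean was 1541 ± 196 in long days, against 1285 ± 218 in short days (SD, n = 12 each), a difference of 0.27 ± 0.10 (log2, SE, 95% interval 0.06 to 0.48), or 1.21-fold, with an unadjusted p of 0.013 and an adjusted p of 0.712 by limma.

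The GPI difference was largest at the later times. At ZT10 the 2 arrays read 1479 and 1414 in long days and 1524 and 1374 in short days, which overlap. At ZT18 they read 1533 and 1642 in long days and 1243 and 1055 in short days, and at ZT22 1382 and 1660 in long days and 1004 and 1077 in short days. The long-day arrays were both above the short-day ones at 3 of 6 times, ZT14 included, where they read 1453 and 1885 in long days and 1347 and 1343 in short days. The log2 difference at ZT22 was 0.54 ± 0.24 (unadjusted p = 0.0372, adjusted p = 1 by limma). Its dependence on time was not shown, with an unadjusted p of 0.597 and an adjusted p of 1 for the interaction in limma.

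The probe sets of GPI disagreed. The brightest, used above, gave 0.27, the second gave -0.01 ± 0.11 and the dimmest gave -0.29 ± 0.24 (log2, SE). The second averaged 847 ± 145 in long days and 861 ± 206 in short days, and the dimmest 44.4 ± 17.9 in long days and 52.3 ± 14.5 in short days (SD, n = 12 each). No direction can therefore be given for GPI.

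TPI1, triosephosphate isomerase, which interconverts the triose phosphates made by aldolase, showed no difference beyond its spread. Its intensity was 1734 at the lowest, 2414 at the median and 3227 at the highest in long days, and 819, 2198 and 2970 in short days. The groups overlapped over most of their range. The mean was 2410 ± 398 in long days, against 2161 ± 565 in short days (SD, n = 12 each), a log2 difference of 0.20 ± 0.14 (SE, 95% interval -0.09 to 0.49, adjusted p = 0.976 by limma).

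A single short-day array stood far below the others for TPI1. At ZT6 the arrays read 2382 and 1734 in long days, and 2324 and 819 in short days. The difference at ZT6 was 0.56 ± 0.34 with that array (log2, SE, adjusted p = 1 by limma) and -0.19 without it. The next widest pairs were ZT14 in long days, at 2055 and 3227, and ZT22 in short days, at 2970 and 1591.

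**Figure D3:**
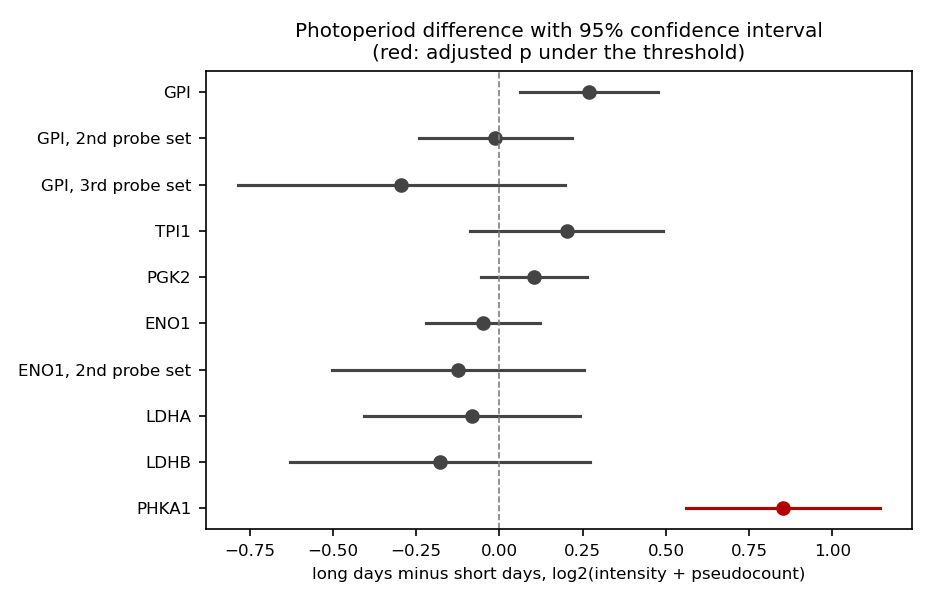
Difference of long days minus short days (horizontal axis, log2) for each probe set tested, as points with 95% confidence intervals from limma. The 2nd and 3rd probe sets of GPI, the 2nd of ENO1 and the gene PGK2, which is not among the 7 genes, are on rows of their own. The interval of PHKA1 runs from 0.56 to 1.14, the brightest GPI probe set from 0.06 to 0.48, and the others reach across 0.

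The annotation assigned a probe set to PGK2, a phosphoglycerate kinase gene, in place of PGK1. It was chosen after the annotation was read, and which phosphoglycerate kinase it reads in quail was not tested. It averaged 2795 ± 238 in long days and 2606 ± 278 in short days (SD, n = 12 each), a log2 difference of 0.10 ± 0.08 (SE, adjusted p = 0.98 by limma). This enzyme makes the first ATP of the pathway.

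ENO1, alpha-enolase, which makes phosphoenolpyruvate, was the steadiest of the members. Its intensity was 1731 at the lowest, 2002 at the median and 2321 at the highest in long days, and 1854, 2101 and 2532 in short days. The ranges overlapped, with 3 long-day arrays below the lowest short-day array. The mean was 2038 ± 203 in long days, against 2112 ± 244 in short days (SD, n = 12 each), and the log2 difference was -0.05 ± 0.08 (SE), with a 95% interval of -0.22 to 0.12 and an adjusted p of 0.991 by limma. Arrays of a group varied by a log2 SD of 0.16, the smallest of the 6 members.

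A second ENO1 probe set was less steady. It averaged 1891 ± 696 in long days and 1900 ± 343 in short days (SD, n = 12 each). At ZT14 it read 1644 and 371 in long days and 2215 and 2140 in short days, a log2 difference of -1.48 ± 0.45 (SE, unadjusted p = 0.0032, adjusted p = 0.705 by limma). The low reading of 371 came from the array with the highest ACTB ratio, at 2.21 on the log2 scale. Without that array the difference at ZT14 was -0.40 on the log2 scale, and with it as the sole long-day array it was -2.55, which rests on that 1 reading.

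LDHA, the lactate dehydrogenase subunit whose enzyme favours lactate production, showed no difference beyond its spread. Its intensity was 65.1 at the lowest, 90.9 at the median and 134 at the highest in long days, and 79.2, 99.2 and 158 in short days. The groups overlapped. The mean was 96.6 ± 23.5 in long days, against 102 ± 22.1 in short days (SD, n = 12 each), with a log2 difference of -0.08 ± 0.16 (SE, 95% interval -0.41 to 0.24, adjusted p = 0.991 by limma).

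The group means of LDHA in long days were highest at ZT10, with arrays at 110 and 124, and lowest at ZT18, with arrays at 65.1 and 71.8. In short days they were highest at ZT14, with arrays at 158 and 95.2, and lowest at ZT10, with arrays at 98.9 and 79.2. Time of day did not pass in either photoperiod (unadjusted p = 0.503 in long days and 0.86 in short days, adjusted p = 1 in both by limma). The difference of -0.59 ± 0.38 at ZT18 was the largest of the 6 times in size (log2, SE, adjusted p = 1 by limma).

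LDHB, the subunit whose enzyme favours the oxidation of lactate, was the most variable. Its intensity was 398 at the lowest, 552 at the median and 1018 at the highest in long days, and 303, 622 and 1361 in short days. The short-day range enclosed the long-day range. The mean was 581 ± 163 in long days, against 698 ± 305 in short days (SD, n = 12 each), with a log2 difference of -0.18 ± 0.22 (SE, 95% interval -0.63 to 0.27, adjusted p = 0.989 by limma).

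The mean LDHB level differed by array number in short days but hardly in long days. Over both photoperiods the array numbered 1 was the higher in 7 of 12 groups. In short days the arrays numbered 1 averaged 913 and those numbered 2 averaged 482, whereas in long days they averaged 578 and 584. At ZT6 the pair read 1018 and 445 in long days and 1361 and 303 in short days. The near-equal long-day means rest on that reading of 1018. In long days number 2 was the higher at ZT2, ZT10, ZT14 and ZT22, and number 1 at ZT6 and ZT18. The difference between photoperiods was -0.68 on arrays numbered 1 alone and 0.32 on those numbered 2 alone (log2), so it turned direction between them.

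None of the 6 genes passed a test of time of day. On each gene's brightest probe set the cosine amplitudes were 0.05 to 0.26 in long days and 0.07 to 0.20 in short days (log2). All 12 lay under the median amplitude of the tested probe sets, 0.31 in long days and 0.32 in short days. A fitted amplitude cannot be negative and grows with the spread of a probe set. That comparison therefore does not show that the members were flatter over the day than other genes. The smallest unadjusted p of a cosine was 0.154 in long days, for PHKA1, and 0.0958 in short days, for GPI. GPI in short days had an amplitude of 0.20 ± 0.09 (log2, SE) with its fitted peak at 8.79 h, its group means being highest at ZT10 (1449) and lowest at ZT22 (1041). Of the other probe sets, the second of ENO1 had an amplitude of 0.51 ± 0.19 in long days (log2, SE, unadjusted p = 0.0449, adjusted p = 1 by limma), with the low array at ZT14 among its 12, and its group test of time there had an unadjusted p of 0.0233 (adjusted p = 1 by limma). The second of GPI had an amplitude of 0.25 ± 0.11 in long days (log2, SE, unadjusted p = 0.102 by limma).

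Over the whole array the tests of time of day called few probe sets in limma: the cosine called 0% in long days and 0.0208% in short days, and 1163 probe sets in long days lay under an unadjusted p of 0.05. The test of time with 6 group means called 0% in long days, with 987 probe sets under an unadjusted p of 0.05, and 0.0208% in short days. The interaction and the difference between the cosines each called 0.00694%, or 2 probe sets. Leaving out the long-day array numbered 1 at ZT14 raised the calls of the group test in long days and of the interaction, in a fit with 1 array in that group. No member's brightest probe set was among those calls, and the other probe sets of GPI and ENO1 were not checked there. The interaction p of the 6 genes lay between 0.388 and 0.968 before adjustment.

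No pair of members was shown to move together from array to array. Over 24 arrays and 15 pairs of genes, Pearson's r ran from -0.22 to 0.54, with 10 pairs above 0 and none past the threshold after adjustment over the 15 pairs. ENO1 and LDHB had the highest, r = 0.54 (permutation p = 0.00668, adjusted p = 0.1) and rho = 0.41 (p = 0.0499, adjusted p = 0.25). Without the 2 arrays farthest from the median of ENO1, r was 0.32, and arrays far out for LDHB were not left out as such. On arrays numbered 1 that pair had r = 0.54 and on arrays numbered 2 r = 0.18. GPI and PHKA1 followed at r = 0.50 (permutation p = 0.0144, adjusted p = 0.108) and rho = 0.48 (p = 0.0203, adjusted p = 0.152). That pair had r = 0.43 without the 2 arrays farthest from the median of GPI, r = 0.38 within long days and r = -0.21 within short days. Within long days GPI had r = 0.66 with ENO1, 0.62 with LDHB, 0.59 with TPI1 and 0.0007 with LDHA. Within short days these were 0.26, -0.35, -0.30 and -0.36, and pairs were not tested within photoperiods.

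The genes nearest to the glycolytic members over the 12 group means were, for GPI, the synaptic vesicle gene SYN2 (r = 0.92), PTPRU (0.90) and METRNL (0.90). For TPI1 they were C1S, a serine protease of the complement pathway (r = 0.93), ROR2 and SMYD4 (0.88 each). For ENO1 they were SPOPL (r = 0.93), PROM1 (0.86) and RAN (0.85). LDHA was most like BANP (r = 0.91), GABARAPL2 (0.88) and NAT10 (0.83), and LDHB most like KLHDC8A (r = 0.85), MAGOH and PML (0.83 each). None of these lists held another member, and each r describes 12 points that share 24 arrays. Each list, that of PHKA1 included, holds the 3 highest r among 8762 genes, so high values follow from the choice itself. No relation is read from them, nor from the absence of other members.

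A further 98 genes of glycolysis, pyruvate handling, glycogen turnover and their regulators were listed in 6 groups, and 65 could be tested. For photoperiod 1 was higher (EPAS1) and 0 lower after adjustment by limma, where 0.132% of all probe sets were called; before adjustment 6 were higher and 0 lower at a p under 0.05, where 2.64% of all probe sets were higher and 2.78% lower. Their median difference was 0.05 on the log2 scale, with 35 of 65 above 0. None passed the cosine test in either photoperiod, and the test of time with group means was not counted for them.

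The other 10 genes of glycogen breakdown had the highest median of these groups, 0.18 with 7 above 0, and none passed. PHKG1, the muscle-type catalytic gamma subunit that pairs with PHKA1 in phosphorylase kinase, came nearest. Its intensity was 138 at the lowest, 244 at the median and 290 at the highest in long days, and 137, 160 and 205 in short days. Of the long-day arrays 11 of 12 lay above all short-day arrays, and the exception was number 2 at ZT14, at 138. The mean was 237 ± 39.4 in long days, against 167 ± 21.9 in short days (SD, n = 12 each), a log2 difference of 0.49 ± 0.13 (SE), higher at 6 of 6 times (unadjusted p = 0.000885, adjusted p = 0.253 by limma). Without that array the log2 difference was 0.57. With quantile normalization the adjusted p of PHKG1 was 0.0461 (limma). PHKG1 stayed uncalled under 36 of 38 alternatives, among them array weights (adjusted p = 0.203) and the ACTB ratio as a covariate (adjusted p = 0.159, both by limma).

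PYGB, the brain glycogen phosphorylase that releases glucose 1-phosphate, averaged 645 ± 245 in long days and 468 ± 107 in short days (SD, n = 12 each). Its log2 difference was 0.41 ± 0.16 (SE, unadjusted p = 0.0206, adjusted p = 0.8 by limma). The long-day mean was higher at 6 of 6 times, as in 2.07% of tested probe sets, and the ranges overlapped. In long days 4 of 12 arrays lay above all short-day arrays, all of them numbered 1, while those numbered 2 read 421 to 597. The second PYGB probe set gave -0.06 ± 0.20 and the third, above background on 5 of 24 arrays, -0.57 ± 0.35 (log2, SE). The other phosphorylase kinase subunits did not pass either: PHKB, the beta subunit, gave 0.24 ± 0.20 on its brightest probe set and -0.30 ± 0.22 on the next, and PHKA2, the liver-type alpha subunit, gave 0.16 ± 0.26 on its brightest and 0.53 ± 0.31 on the next, which was above background on 14 of 24 arrays (log2, SE).

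CALM2, a calmodulin gene, whose protein is the delta subunit of the kinase, gave -0.12 ± 0.12 (log2, SE). The acid glucosidase GAA and the phosphoglucomutase-related PGM2L1, the genes of the group nearest to a daily rhythm in short days, had amplitudes of 0.91 and 0.40 there (log2, unadjusted p = 0.0885 and 0.122 by limma). GAA was above background on 4 long-day and 3 short-day arrays. The other phosphorylase, the liver form PYGL, averaged 27.0 ± 13.4 in long days and 26.7 ± 12.5 in short days (SD, n = 12 each).

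**Figure D4:**
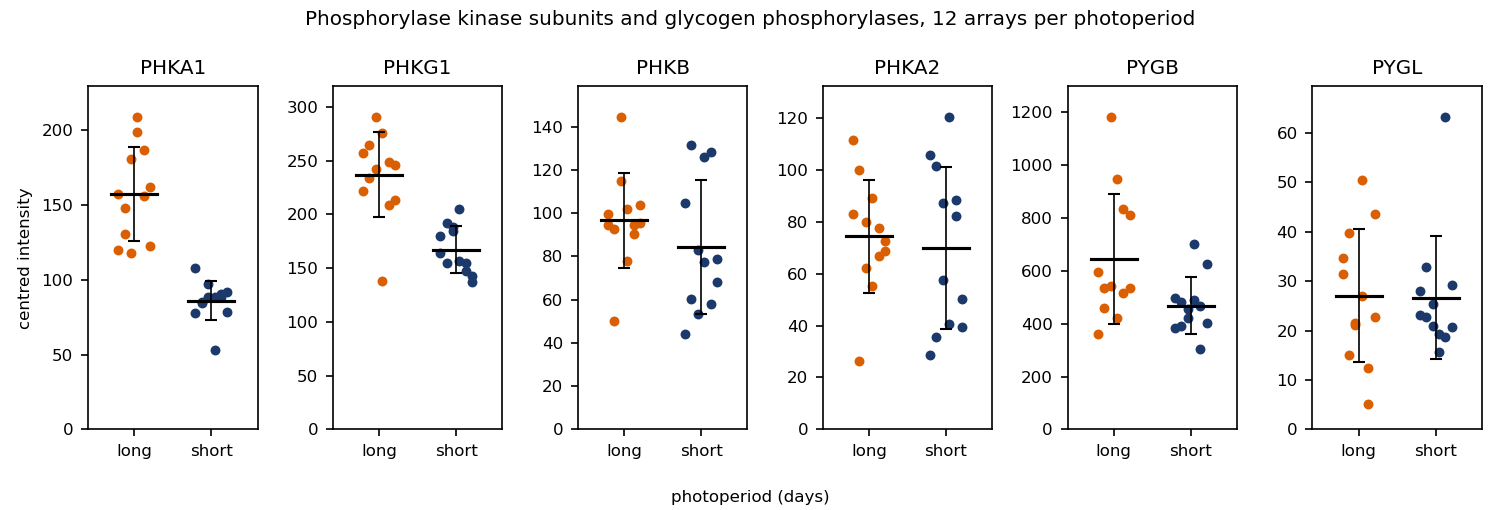
Centred intensity (vertical axes, from 0) of 4 phosphorylase kinase subunits and of the brain (PYGB) and liver (PYGL) glycogen phosphorylases in long days, left, and short days, right, with 12 arrays each as points ordered by zeitgeber time within a column, the mean as a bar and ± SD as whiskers. PHKA1 separates fully (means 158 and 86.1), PHKG1 except for 1 long-day array (237 and 167), and the other 4 overlap.

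Glycogen synthesis and its control were tested with 12 genes. Of these 4 lay above 0, with a median of -0.04, and 0 passed. PPP1R3B, which brings protein phosphatase 1 to glycogen, gave -0.42 ± 0.30, the catalytic subunit PPP1CA -0.17 ± 0.15, and the synthase kinase GSK3A -0.12 ± 0.11 (log2, SE). Genes nearest to a rhythm were NHLRC1, the ubiquitin ligase malin, with an amplitude of 0.85 in long days, the glycogenins GYG2 (0.55 in long days) and GYG1 (0.67 in short days), and PPP1CC (0.51 in short days), with unadjusted p from 0.0472 to 0.228 (limma). NHLRC1 was above background on 4 arrays in each photoperiod and GYG2 on 5 long-day and 7 short-day arrays.

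For entry of glucose and the preparatory steps, 14 genes were tested, 5 lay above 0 with a median of -0.03, and 0 passed. SLC2A1, the glucose transporter GLUT1 of the blood-brain barrier, averaged 223 ± 68.5 in long days and 152 ± 90.5 in short days (SD, n = 12 each), a log2 difference of 0.75 ± 0.26 (SE, adjusted p = 0.634 by limma). Of the long-day arrays 4 of 12 lay above all short-day arrays. HKDC1, a hexokinase family gene, gave -0.58 ± 0.35 and the transporter SLC2A2 gave 0.49 ± 0.35. Among the bifunctional enzymes that make and remove the main activator of phosphofructokinase, PFKFB1 had amplitudes of 0.73 in long days and 0.61 in short days and PFKFB3 had 0.89 in short days, with unadjusted p from 0.102 to 0.192 (log2, limma). The fructose transporter SLC2A5 was above background on 0 of 24 arrays and is not read. HKDC1 was above background on 6 long-day and 7 short-day arrays and SLC2A2 on 6 long-day and 5 short-day arrays.

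For the later steps 7 genes were tested, 3 lay above 0 with a median of -0.02, and 0 passed. GAPDH, which makes the first NADH of the pathway, averaged 6007 in long days and 6224 in short days, a log2 difference of -0.05 ± 0.07 (SE). PGAM1, a phosphoglycerate mutase, gave 0.09 ± 0.16 (log2, SE). BPGM, the bisphosphoglycerate mutase, was above background on 0 long-day arrays and 1 short-day array, so no difference or rhythm is read from it. The neuronal enolase ENO2 had an amplitude of 0.09 in long days and the mutase family phosphatase PGAM5 one of 0.42 in short days.

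Pyruvate and lactate handling held 12 tested genes, of which 10 lay above 0 with a median of 0.16, and 0 passed. PDK4, a kinase that switches off pyruvate dehydrogenase, gave 0.75 ± 0.44 at a mean of 12.9 in long days and 8.59 in short days. SLC16A1, the lactate carrier MCT1, gave 0.30 ± 0.18, and DLD, the E3 subunit of pyruvate dehydrogenase, gave -0.28 ± 0.19 (log2, SE). DLD and the phosphatase PDP2 had amplitudes of 0.54 and 1.08 in long days (unadjusted p = 0.022 and 0.0322), and the lactate carrier SLC16A7 and the kinase PDK1 had 0.34 and 0.48 in short days (unadjusted p = 0.0531 and 0.128 by limma). PDK4 was above background on 2 long-day arrays and 1 short-day array, and PDP2 on 4 long-day and 2 short-day arrays.

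Among 10 regulators, EPAS1, an oxygen-regulated transcription factor of the HIF family, was the gene that passed. It is read here on the brighter of its 2 probe sets, and the other is not reported. Its intensity was 934 at the lowest, 1405 at the median and 1758 at the highest in long days, and 605, 938 and 1289 in short days. Of the long-day arrays 11 of 12 lay above all short-day arrays, and the exception was the lowest, at 934, so the ranges overlapped. The mean was 1419 ± 214 in long days, against 972 ± 167 in short days (SD, n = 12 each), a log2 difference of 0.55 ± 0.11 (SE), higher at 6 of 6 times, with an adjusted p of 0.0322 by limma. The call was lost with 15 of the 24 arrays left out in turn, while the difference stayed between 0.48 and 0.62. In all it was lost under 21 of 38 alternatives, among them no centring (adjusted p = 1), a doubled pseudocount (0.0569) and one of 16 (0.504), no variance trend (0.42), arrays numbered 1 alone (0.128) and arrays numbered 2 alone (0.182), all by limma.

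The proto-oncogene MYC, which drives many glycolytic genes, averaged 70.7 ± 26.7 in long days and 46.0 ± 10.9 in short days (SD, n = 12 each), a log2 difference of 0.55 ± 0.21 (SE, adjusted p = 0.74 by limma). VHL, the ligase subunit that marks HIF proteins for destruction, gave 0.68 ± 0.33 and was above background on 6 of 12 long-day and 4 of 12 short-day arrays (adjusted p = 0.916 by limma). HIF1A and its prolyl hydroxylase EGLN3 had amplitudes of 0.68 and 0.76 in long days, and the hydroxylase EGLN1 and the kinase subunit PRKAA2 had 0.33 and 0.98 in short days (log2, unadjusted p from 0.021 to 0.102 by limma). EGLN3 was above background on 1 long-day and 4 short-day arrays and PRKAA2 on 3 long-day and 2 short-day arrays. HIF1A averaged 32.7 in long days and 35.4 in short days.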

How the data were processed

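Total RNA of the MBH was extracted with Trizol and 5 ug of each pool was labelled and hybridised to an Affymetrix chicken array, per the labels' protocols. The deposited values are intensities, 1 per probe set and array, made with GCOS 1.2 per the submitters' processing notes, with its settings not given in the sources used here. They ranged from 0.0275 to 13690 and had array medians of 10.9 to 21.1, so they did not share a common median. Whether they had been scaled by another measure is not known here.

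After 96 control probe sets were set aside, log2(intensity + 1.50) was taken, the pseudocount being 10% of the overall median, and each array was centred on its median. The 28829 probe sets above the lowest 25% in mean level were tested in limma 3.58.1 (R 4.3.3) with 12 group means, with a cosine of 24 h period as a second model, and Benjamini-Hochberg adjustment over all probe sets at a threshold of 0.05. A fold change on this scale understates the change of dim probe sets. The photoperiod difference is the mean over the 6 times. No array was dropped or imputed. Background on an array was the 95th percentile of the 746 probe sets whose names carry no chicken prefix. A gene's brightest probe set stood for it. Correlations used 100000 permutations (numpy 2.4.6). The fit was tested on simulated data.

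Alternatives were no centring, quantile normalization, other pseudocounts and filters, no variance trend, array weights, a replicate block, each array number alone and each array left out. The members and all lists were chosen with earlier results of these data known. For each group of further genes the text names the 3 with the smallest p for photoperiod and the 2 with the smallest p for a cosine in each photoperiod, with the phosphorylase kinase subunits, PYGL and PGK2 added after their values were seen. LDHA and PGK2 keep the symbol of the array's annotation, as the quail gene table used here does not hold it. The brightest probe sets of GPI and ENO1, and the only probe set of PHKA1, are of a kind that can match several transcripts.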

Additional observations from a re-analysis of the deposited data

How the results depend on the processing

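The count of members that passed for photoperiod was 1 in the fit reported and fell to 0 with no centring, on arrays numbered 1 alone, on arrays numbered 2 alone, and with the ACTB ratio as a covariate, which was added after the data were seen. It was 1 under the other 34 of 38 alternatives, and no member's brightest probe set passed any test of a single time, of time of day or of the interaction under any alternative run. The second ENO1 probe set passed at ZT14 (adjusted p = 0.00102 by limma) where the other long-day array there was left out, a fit that gives the lone array the spread of the other groups. Same-numbered arrays shared some deviation: over 66 pairs of groups their deviations correlated at 0.01 to 0.103, all above 0, with 3 pairs over 0.1. The fit reported takes no account of the array number. Arrays numbered 2 had the higher GAPDH 3′ over 5′ ratio in 12 of 12 groups (0.31 against 0.13 on average, log2) and were the dimmer in all 12. Their ACTB ratio was the higher in 9 of 12 groups. With the number as a replicate block PHKA1 kept its call, with a difference of 0.85 and an adjusted p of 0.000462 by limma, and the count over all probe sets was 76 in place of 38.

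Directions turned as follows, none of them past the threshold (log2). On arrays numbered 2 alone BPGM gave 0.0397, GAPDH 0.0152, LDHA 0.17, LDHB 0.32 and the second GPI probe set 0.11, and on arrays numbered 1 alone TPI1 gave -0.0343. With the ACTB covariate DLD gave 0.0230 and the second GPI probe set 0.0609, and with quantile normalization that probe set gave 0.0253. GPI turned to -0.0126 on its second probe set, which is also the median of its probe sets, and to -0.29 on its dimmest. With each array left out in turn, the second ENO1 probe set ran from -0.30 to 0.0528, the second GPI probe set from -0.0802 to 0.0550, LDHB from -0.36 to 0.0016, and TPI1 at ZT6 from -0.19 to 1.31. The causes were not tested.

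Among the counts over all probe sets that moved by more than 1.5 times were the following. Those of the group tests of time and of the interaction also moved with single arrays left out and are not listed. For photoperiod the 38 calls (22 higher, 16 lower) became 74 with quantile normalization (53 higher, 21 lower), 12 with no centring (9 higher, 3 lower) and 16 on arrays numbered 2 alone. For single times the 2 to 8 calls became 1 to 3 with no centring, 1 to 2 with no variance trend, 1 to 3 with a pseudocount of 16, 4 to 11 with quantile normalization and 6 to 12 with the replicate block, and reached 344, at ZT14, with 1 array left out. For time of day in short days the 6 calls of the cosine became 2 with no centring and with no variance trend, 3 with a pseudocount of 16 and 11 with the block; the 6 calls of the group test became 0 with no centring, 3 with no variance trend and with a pseudocount of 16, and 11 with the block. The 2 calls of the interaction became 0 under the first 3 of these, and the 2 of the difference between the cosines became 0 with no centring.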
